A study of Mus musculus with 7 samples.

Results

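Interferon-stimulated effector genes are the genes that cells switch on after sensing an interferon, and they were examined here in mouse T-cell acute lymphoblastic leukemias of 2 genotypes. The list held 42 genes, chosen by name from the known biology of the interferon response and by no threshold on measured values. Earlier results of these data were known when the list was chosen. A gene was measured through the probe set that carried its symbol alone and, where several did, through the brightest of them over the 7 arrays. This gave 39 measured genes of 18193 in the whole series. Isg15, Ifi44 and Oas1g had no probe set with a single symbol in the annotation used and were not analysed here. Of the 39, 30 were antiviral effectors and sensors, 7 were interferon-inducible GTPases and 2 were chemokines. Mx1 and Mx2, which also encode GTPases, were counted with the antiviral genes.

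The series compared leukemic cells of terminally ill C57Bl/6 mice on Affymetrix expression arrays. In the ICN1 group, 3 arrays held bone marrow cells of mice whose leukemia carried ICN1, an activated form of the receptor NOTCH1. In the TEL-JAK2 group, 4 arrays held thymus cells of mice whose leukemia carried TEL-JAK2, in which the kinase domain of JAK2 is fused to TEL and signals without a ligand. Each genotype came from a single tissue, so a difference of genotype and a difference of tissue cannot be told apart in any value below. Tissues were crushed or dissociated, filtered and lysed as whole suspensions, and no sorting is named in the labels. Neither the promoter or vector that carried each oncogene nor the age of the mice is given in the sources used here. No array of healthy tissue was part of the comparison, so no unleukemic level of these genes was measured.

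Interferons signal through receptor chains bound by Janus kinases, which phosphorylate STAT proteins. Type I interferons (alpha and beta) act through a complex that holds STAT2 and IRF9 on a DNA element called the interferon-stimulated response element (ISRE). Interferon gamma acts mainly on another element, the gamma-activated site (GAS). Antiviral effectors such as the IFIT, OAS and MX proteins are classical targets of type I interferon. The guanylate-binding proteins (GBP) and immunity-related GTPases (IRG) are strongly induced by interferon gamma and act on the vacuoles of intracellular pathogens. Because JAK2 itself is one of the kinases below the interferon gamma receptor, the comparison of the TEL-JAK2 and ICN1 leukemias bears on this gene program.

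Values are the deposited log2 expression values, and a difference of 1 is a 2-fold change. Array medians lay between 5.44 and 5.5. Pearson's r over 45037 probe sets was at least 0.973 within either group and between 0.921 and 0.944 across groups. The mean of 7 T cell markers was 11.45 to 11.68 in ICN1 and 11.89 to 12.06 in TEL-JAK2, so transcripts of the named leukemia lineage were abundant in every array. ICN1 replicates 1 and 2 held both the X-inactivation transcript Xist (11.51 and 11.78) and the Y-linked Eif2s3y (8.93 and 9.41), which a single animal does not normally do. The other 5 arrays each carried either Xist or Eif2s3y. Marrow arrays also held other cells: 8 erythroid genes averaged 11.70 to 12.14 in ICN1 against 5.09 to 5.72 in TEL-JAK2. In bulk samples, fewer cells of a type and less RNA per cell cannot be told apart.

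The upstream sequences of 5 members are shown here because these genes carry the results that follow. Rsad2 is the member with the largest fall in TEL-JAK2. Samd9l and Gbp7 rose most among the antiviral members and the GTPases for which the sequence table held an entry. Igtp and Irgm2 are neighbouring GTPase genes that rose together. Each line gives the 250 bases before the annotated start of the gene, 5′ to 3′ on the gene's own strand, from RefSeq on build GRCm38.p6. Capitals mark matches on either strand to the ISRE core (TTTC, any 2 bases, TTTC) or to the GAS core (TTC, any 3 bases, GAA), whose letters read the same on both strands. The positions are chr12:26456453-26456702 (minus strand) for Rsad2, chr6:3399572-3399821 (minus strand) for Samd9l, chr3:142530086-142530335 (plus strand) for Gbp7, chr11:58199306-58199555 (plus strand) for Igtp and chr11:58214727-58214976 (plus strand) for Irgm2.
Rsad2: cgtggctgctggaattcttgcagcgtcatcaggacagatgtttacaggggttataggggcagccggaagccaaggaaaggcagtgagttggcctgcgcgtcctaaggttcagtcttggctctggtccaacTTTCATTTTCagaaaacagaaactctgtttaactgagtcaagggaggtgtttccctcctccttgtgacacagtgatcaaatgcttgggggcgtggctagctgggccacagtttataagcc
Samd9l: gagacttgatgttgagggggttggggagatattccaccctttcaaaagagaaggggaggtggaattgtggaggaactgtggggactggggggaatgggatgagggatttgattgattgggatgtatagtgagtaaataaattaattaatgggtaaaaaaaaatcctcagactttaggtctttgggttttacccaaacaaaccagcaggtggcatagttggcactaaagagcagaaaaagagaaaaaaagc
Gbp7: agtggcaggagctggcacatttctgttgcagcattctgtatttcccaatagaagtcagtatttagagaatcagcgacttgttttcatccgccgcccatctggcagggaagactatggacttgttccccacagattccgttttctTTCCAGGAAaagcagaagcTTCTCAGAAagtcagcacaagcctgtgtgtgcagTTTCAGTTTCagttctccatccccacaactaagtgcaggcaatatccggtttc
Igtp: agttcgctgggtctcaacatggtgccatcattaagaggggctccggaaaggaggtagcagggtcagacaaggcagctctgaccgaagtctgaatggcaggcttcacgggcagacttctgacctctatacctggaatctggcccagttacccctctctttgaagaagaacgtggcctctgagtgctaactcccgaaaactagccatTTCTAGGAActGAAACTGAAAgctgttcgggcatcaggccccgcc
Irgm2: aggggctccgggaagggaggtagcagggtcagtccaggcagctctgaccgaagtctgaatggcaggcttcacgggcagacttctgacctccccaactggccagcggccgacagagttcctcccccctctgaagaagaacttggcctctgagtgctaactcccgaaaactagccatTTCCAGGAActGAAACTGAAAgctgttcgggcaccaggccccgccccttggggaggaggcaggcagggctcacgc

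Positions are counted from the start of the gene. Rsad2 had an ISRE match that began at -120. Gbp7 had an ISRE match at -53 and a GAS match at -106 and at -87. In both Igtp and Irgm2 a GAS match was followed by an ISRE match on the minus strand, at -45 and -34 in Igtp and at -75 and -64 in Irgm2. The longest identical run of the 2 windows was 55 bases. No match to these letters was in the Samd9l window. Over the full windows of 300 bases, which add 50 bases after the start, 29 measured members had an entry and 16 of them held an ISRE match (55.2%). Of all 27025 genes in the table, 3.99% did. The 6 GTPases with an entry all held an ISRE match, against 9 of 21 antiviral members. A GAS match was in 10 of the 29 members (34.5%), against 9.55% of all genes, and 6 members held both. Matches overlapped each other in Oas1a, Gbp3 and Irgm1, where a pair of ISRE matches began 6 bases apart, and in Bst2. Among the members that were called higher in TEL-JAK2 and had an entry, 6 of 10 held an ISRE match, and among those not called 9 of 16 did. A GAS match was in 5 of the 10 and in 4 of the 16. These matches describe the sequence and were not tested for binding.

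The 2 leukemias differed in which interferon-stimulated genes they expressed, and the members moved in both directions. In TEL-JAK2, 13 members were higher and 3 were lower by limma at an adjusted p under 0.05, and 23 were not called. Of all genes tested 24.1% were called, 11.9% higher and 12.2% lower, against 16 of 39 members (41%). The median difference, TEL-JAK2 minus ICN1, was 0.70 over the members and 0.04 over all genes. The 2 groups did not overlap in 15 of the 39 members, against 34.3% of all genes. A difference of at least 2-fold was called higher in 12 members and lower in 3, where the share of all genes was 5.33% and 6.1%. The number of members called higher fell from 13 to 7 without ICN1 replicate 2 and to 8 without ICN1 replicate 3, and to 8 without ICN1 replicates 1 and 2 together. With arrays centred on 4 CD3 genes, which lowers the median of all genes by 0.62, 11 members were higher and 10 lower.

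**Figure D1:**
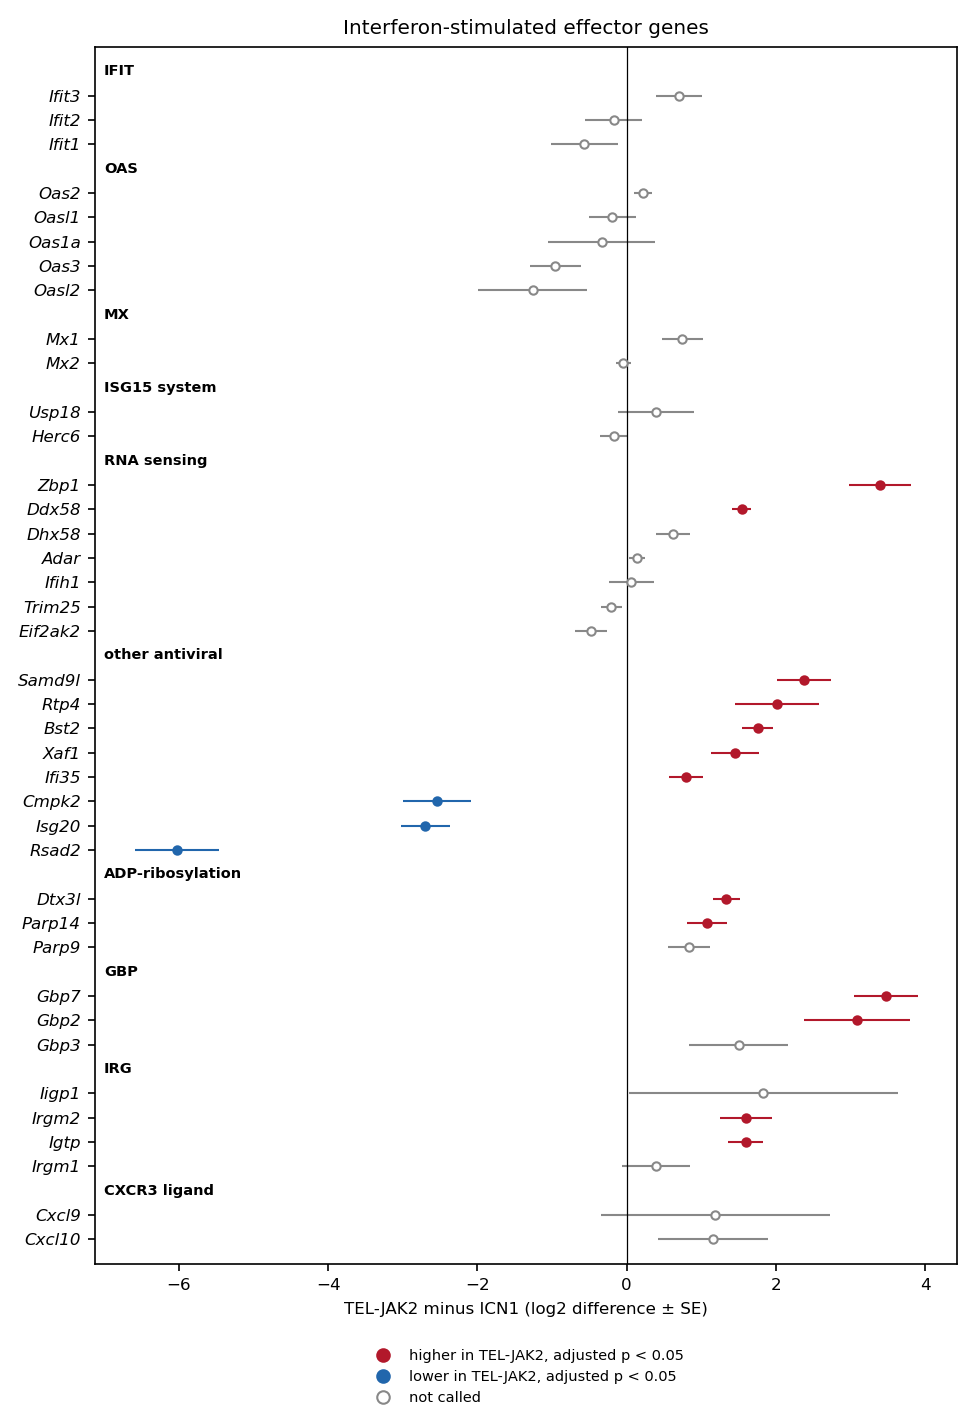
Log2 difference (TEL-JAK2 minus ICN1, horizontal axis) of the 39 measured members, grouped by role, with the standard error of the fit as whiskers (3 ICN1 and 4 TEL-JAK2 arrays). Filled points passed an adjusted p under 0.05. Rsad2, Isg20 and Cmpk2 lie to the left at -6.03, -2.70 and -2.54. No GTPase was called lower, where 12.2% of all genes were.

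Antiviral genes moved both ways, and the GTPases that were called all rose. Of 30 antiviral members 9 were higher, 3 lower and 18 not called, with a median difference of 0.18. Of all genes tested 11.9% were higher and 12.2% lower, so the antiviral lower calls stood near the share of all genes. Of the 7 GTPases, all GBP or IRG genes, 4 were higher, 0 lower and 3 not called, with a median of 1.6. All 7 differences were above 0 except that Irgm1 turned to -0.23 with CD3 centring. Mx1 and Mx2 encode GTPases too but were counted as antiviral. Neither was called, and Mx2 had a negative difference (-0.04). By limma, 0 GTPases were lower at an unadjusted p under 0.05 as well. With 12.2% of all genes called lower, the absence of a lower call among 7 genes carries little weight. Whether the 2 groups of members differ from each other was not tested. The antiviral count of 9 fell to 5 without ICN1 replicate 2 or ICN1 replicate 3, and the GTPase count of 4 fell to 2 without ICN1 replicate 2. With CD3 centring 7 antiviral members were higher and 10 lower, and the same 4 GTPases were higher. Under that scaling 787 of all 18193 genes were higher and 11410 lower.

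The largest change of any member was the fall of Rsad2, which encodes viperin, a radical enzyme that makes a chain-terminating nucleotide against viral polymerases. It read 13.57, 13.89 and 12.41 in the ICN1 arrays and 7.28, 8.45, 6.11 and 7.21 in the TEL-JAK2 arrays. The lowest ICN1 array thus lay far above the highest TEL-JAK2 array. The difference was -6.03 ± 0.57, or 65.3-fold (adjusted p = 0.000498), where ± gives the standard error of the limma fit here and below unless SD is written. Its further probe sets read -6.27 and -6.47. Cmpk2, a mitochondrial nucleotide kinase whose gene lies next to Rsad2 on chromosome 12, fell as well. It read 8.45, 9.14 and 8.47 in ICN1 and 6.10, 6.93, 4.95 and 6.60 in TEL-JAK2, without overlap (-2.54 ± 0.46, 5.81-fold, adjusted p = 0.00733). A second Cmpk2 probe set gave -1.71. With a per-gene test of unequal variances Cmpk2 missed the threshold (adjusted p = 0.0532).

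Isg20, an exonuclease that degrades single-stranded RNA, was the third member that went against the rest. It read 12.30, 12.71 and 11.76 in ICN1 and 9.53, 10.31, 9.26 and 9.15 in TEL-JAK2. All ICN1 arrays were above all TEL-JAK2 arrays (-2.70 ± 0.33, 6.48-fold, adjusted p = 0.00148). The calls of Rsad2, Cmpk2 and Isg20 held in all 7 fits without 1 array, with adjusted p of at most 0.0291. Without ICN1 replicates 1 and 2 together, Cmpk2 was not called and the other 2 were. In the same ICN1 arrays the erythroid list (8 of 8 genes lower in TEL-JAK2), the granulocyte list (5 of 10, mean 6.27 to 8.04 in ICN1 against 5.20 to 5.65) and the macrophage list (5 of 11, mean 8.02 to 9.54 against 5.94 to 7.89) stood higher too. The part of these cells in the 3 falls was not tested. ICN1 replicate 3 was the lowest ICN1 array for each of the 9 cell type lists, the T cell list included, and for 26 of the 39 members. Rsad2 and Isg20 were among those members, while Cmpk2 was lowest in ICN1 replicate 1.

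**Figure D2:**
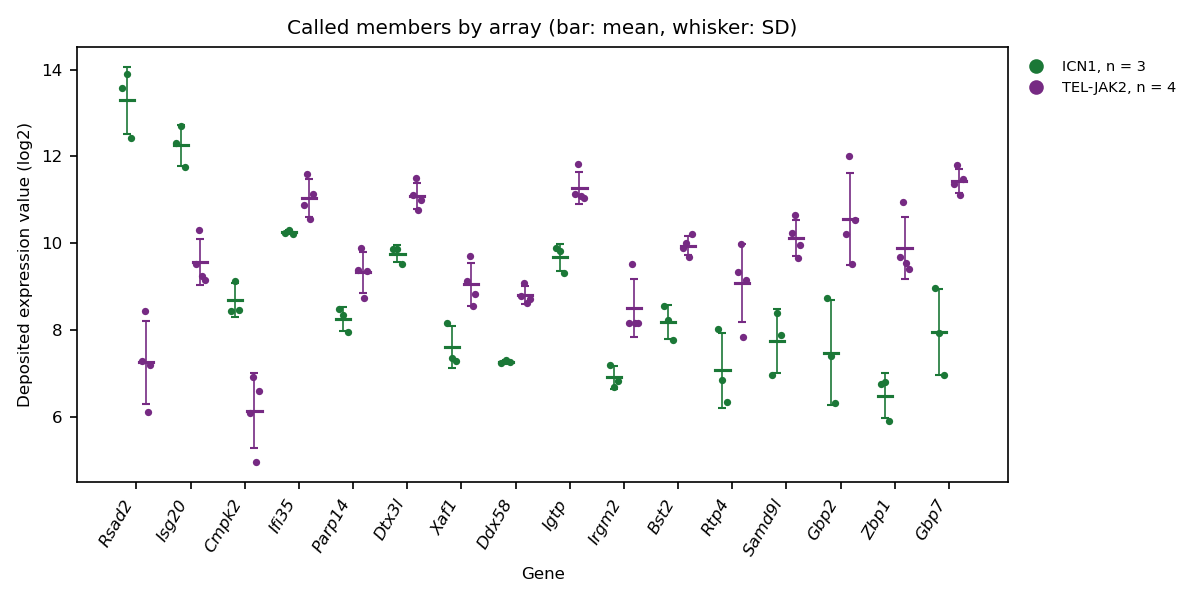
Deposited log2 value (vertical axis) of each array for the 16 called members (horizontal axis, ordered by difference), with the group mean as a bar and the SD as a whisker, for 3 ICN1 and 4 TEL-JAK2 arrays. The groups separate for every gene shown except Rtp4, whose lowest TEL-JAK2 array (7.85) lies under the highest ICN1 array (8.03).

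The sensors of foreign nucleic acid included the antiviral member with the largest rise. Zbp1 encodes a sensor of Z-form nucleic acid that can start necroptosis. It read 6.77, 6.81 and 5.90 in ICN1 and 9.68, 10.94, 9.54 and 9.40 in TEL-JAK2, a rise without overlap (3.4 ± 0.41, 10.5-fold, adjusted p = 0.00145). Its further probe set gave 3.36. Ddx58, which encodes the RNA helicase RIG-I, read 7.23, 7.30 and 7.26 in ICN1 and 8.80, 9.10, 8.62 and 8.71 in TEL-JAK2. Its arrays varied little within either group and stood 2.91-fold apart (1.54 ± 0.13, adjusted p = 0.000282). Of its 2 further probe sets 1 was called (1.65) and the other was not (0.56).

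The other 5 members that sense or answer viral RNA were not called. Ifih1, the helicase MDA5, which senses long double-stranded RNA, had an ICN1 mean of 8.02 ± 0.47 (SD, n = 3) and a TEL-JAK2 mean of 8.09 ± 0.47 (SD, n = 4), which differed by 0.06 ± 0.31. Dhx58, a helicase that regulates the other two, read 5.90, 5.71 and 5.59 in ICN1 and 6.37, 6.83, 5.81 and 6.42 in TEL-JAK2, with TEL-JAK2 replicate 3 inside the ICN1 range (0.62 ± 0.23, adjusted p = 0.0933). It was called without TEL-JAK2 replicate 3 (adjusted p = 0.0193), another of its probe sets was called at 1.02 while the other was not (0.05), and with CD3 centring its difference was -0.0003. Trim25, a ubiquitin ligase that acts with RIG-I, ran from 10.17 to 10.47 in ICN1 and from 9.84 to 10.30 in TEL-JAK2 (-0.20 ± 0.14). Eif2ak2, the kinase PKR, which stops translation on double-stranded RNA, ran from 7.13 to 7.91 and from 6.66 to 7.31 (-0.48 ± 0.22). Adar, which deaminates adenosine in double-stranded RNA, ran from 8.96 to 9.25 and from 9.07 to 9.29 (0.14 ± 0.11), and another of its probe sets was called at 0.44. All 5 genes overlapped between the groups. With CD3 centring Trim25 (-0.83) and Eif2ak2 (-1.10) were called lower.

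Of 8 further antiviral effectors with an own role each, 5 rose in TEL-JAK2 and 3 fell, the 3 described above. Samd9l, a restriction factor and growth suppressor, read 6.97, 8.40 and 7.88 in ICN1 and 10.24, 10.64, 9.66 and 9.96 in TEL-JAK2 (2.37 ± 0.36, 5.18-fold, adjusted p = 0.00376). Bst2 encodes tetherin, a membrane protein that holds budding virions at the cell surface. It read 8.56, 8.23 and 7.78 in ICN1 and 9.89, 10.02, 9.68 and 10.20 in TEL-JAK2 (1.76 ± 0.20, 3.38-fold, adjusted p = 0.00123). The groups did not overlap in either gene, and both calls held in all 7 fits without 1 array. With a per-gene test of unequal variances neither Samd9l nor Bst2 was called. Bst2 is also a marker of plasmacytoid dendritic cells. Of 8 markers of those cells, Bst2 itself included, 3 were higher (Bst2, Ccr9 and Pacsin1), 0 lower and 5 not called. Their mean ran from 6.87 to 7.31 in ICN1 and from 7.87 to 8.53 in TEL-JAK2. The largest differences were those of Ccr9 (3.90) and Ly6d (2.15, not called). Tcf4 alone had a negative difference (-1.15, not called), and Irf7 differed by 0.13. Siglech, the defining marker of plasmacytoid dendritic cells, was not called. It read 5.20 to 5.27 in ICN1 and 6.68, 5.78, 5.77 and 5.28 in TEL-JAK2. The cells that carried Ccr9 and Ly6d in these bulk samples were not identified, and the part of plasmacytoid dendritic cells was not tested.

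The calls of Xaf1, Rtp4 and Ifi35 were each lost without some single arrays. Xaf1, a pro-apoptotic partner of the inhibitor XIAP, read 8.16, 7.36 and 7.30 in ICN1 and 9.13, 9.71, 8.55 and 8.83 in TEL-JAK2, without overlap (1.45 ± 0.32, 2.73-fold, adjusted p = 0.0160). Its adjusted p was 0.0566 without ICN1 replicate 2 and 0.0520 without ICN1 replicate 3. Its second, dim probe set gave 0.06 and was not called. Rtp4, a chaperone of membrane receptors, read 8.03, 6.86 and 6.34 in ICN1 and 9.35, 9.99, 7.85 and 9.16 in TEL-JAK2. The groups overlapped through ICN1 replicate 1 and TEL-JAK2 replicate 3 (2.01 ± 0.56, 4.03-fold, adjusted p = 0.0389). It passed the threshold only without ICN1 replicate 1 or TEL-JAK2 replicate 3, and the removal of any other array gave an adjusted p of 0.0749 to 0.113. Its second, dim probe set gave 0.27 and was not called. Ifi35, a leucine zipper protein, read 10.25, 10.31 and 10.22 in ICN1 and 10.89, 11.60, 10.56 and 11.15 in TEL-JAK2. The groups did not overlap (0.79 ± 0.23, 1.73-fold, adjusted p = 0.0438). It was called without TEL-JAK2 replicates 2 or 3 but lost without any other array (adjusted p from 0.0745 to 0.108). Neither other probe set for the gene (0.65 and 0.55) was called, and with CD3 centring it read 0.17.

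The neighbours Parp14, Dtx3l and Parp9 lie in a row on chromosome 16 and encode partners in ADP-ribosylation, PARP9 forming a complex with the ubiquitin ligase DTX3L. Dtx3l read 9.88, 9.88 and 9.53 in ICN1 and 11.11, 11.50, 10.77 and 11.01 in TEL-JAK2, without overlap (1.33 ± 0.18, 2.52-fold, adjusted p = 0.00242). Parp14 read 8.49, 8.35 and 7.95 against 9.38, 9.89, 8.73 and 9.35 (1.07 ± 0.27, 2.10-fold, adjusted p = 0.0253). The groups of Parp14 were separate as well, and its further probe set gave 0.65 and was not called. Parp9 read 9.20, 9.54 and 9.15 against 10.12, 10.78, 9.48 and 10.15, and it was not called (0.84 ± 0.28, adjusted p = 0.0718). TEL-JAK2 replicate 3 lay under ICN1 replicate 2, the highest of that group. Without TEL-JAK2 replicate 3, Parp9 was called (adjusted p = 0.0200). Parp14 passed only where ICN1 replicate 1, TEL-JAK2 replicate 2 or TEL-JAK2 replicate 3 was dropped, the removal of any other array giving an adjusted p of 0.0511 to 0.0777, and with CD3 centring it read 0.45 and was not called.

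The IFIT, OAS and MX genes, classical targets of type I interferon, and the enzymes of the ISG15 system were not called. The 3 IFIT genes encode proteins that bind foreign RNA. Ifit1 ran from 5.62 to 6.73 in ICN1 and from 4.54 to 6.24 in TEL-JAK2 (-0.57 ± 0.45), and Ifit2 from 7.34 to 8.04 and from 6.73 to 8.35 (-0.17 ± 0.38). Ifit3 read 5.71, 5.68 and 5.76 in ICN1 and 6.38, 6.90, 5.56 and 6.83 in TEL-JAK2, so that only TEL-JAK2 replicate 3 kept the groups from separating (0.70 ± 0.31). The 5 measured OAS genes encode oligoadenylate synthetases, which start RNA decay through RNase L, and relatives without that activity. Oas3 read 7.63, 7.45 and 7.10 in ICN1 and 6.77, 7.18, 5.92 and 5.87 in TEL-JAK2, overlapping through TEL-JAK2 replicate 2 (-0.96 ± 0.34, adjusted p = 0.0852). Oasl2 read 7.96, 6.16 and 5.69 against 5.11, 6.29, 3.86 and 6.10, with ICN1 replicate 1 far above the rest (-1.26 ± 0.73). Oas1a had the same high array, reading 9.26, 6.98 and 7.05 against 7.36, 8.53, 6.12 and 7.70 (-0.33 ± 0.72). Oasl1 differed by -0.19 ± 0.32 and Oas2 by 0.22 ± 0.13. The genes of the dynamin-like GTPases Mx1 and Mx2 differed by 0.75 ± 0.27 and -0.04 ± 0.10. Both averaged under 5.52, the median over all probe sets, and whether their proteins function in these mice was not measured. Usp18, which removes ISG15 from proteins and dampens the interferon receptor, read 6.96, 7.33 and 6.27 against 7.40, 7.69, 5.90 and 7.97 (0.39 ± 0.51), and Herc6, the ligase that attaches ISG15 in mice, differed by -0.17 ± 0.19.

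Single arrays weighed on several of these 12 genes. Without TEL-JAK2 replicate 3, Ifit3 (adjusted p = 0.00835) and Mx1 (0.0165) were called higher, and without TEL-JAK2 replicate 2 Oas3 was called lower (0.0304). With CD3 centring Ifit1 (-1.19), Oas3 (-1.58), Oasl2 (-1.88), Mx2 (-0.67) and Herc6 (-0.79) were called lower. At the deposited scaling, limma called 0 of the 12 and gave 2 of them an unadjusted p under 0.05, Oas3 and Mx1. A p above the threshold does not show that these genes were alike in the 2 leukemias, since standard errors ran from 0.10 for Mx2 to 0.73 for Oasl2.

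Among the guanylate-binding proteins, Gbp7 and Gbp2 rose. Gbp7 read 8.97, 7.94 and 6.97 in ICN1 and 11.36, 11.79, 11.11 and 11.48 in TEL-JAK2, wide in the first group and narrow in the second (3.47 ± 0.43, 11.1-fold, adjusted p = 0.00156). Gbp2 read 8.74, 7.40 and 6.31 in ICN1 and 10.20, 12.02, 9.52 and 10.53 in TEL-JAK2 (3.08 ± 0.71, 8.48-fold, adjusted p = 0.0192). Neither gene overlapped between the groups, and their further probe sets gave 2.85 and 2.93. The adjusted p of Gbp2 was 0.0584 without ICN1 replicate 2 and 0.0538 without ICN1 replicate 3. With a per-gene test of unequal variances neither Gbp7 nor Gbp2 was called. Gbp3, whose gene is next to Gbp7 on chromosome 3, read 7.86, 7.28 and 7.35 in ICN1 and 8.72, 10.83, 7.66 and 8.79 in TEL-JAK2. TEL-JAK2 replicate 3 fell inside the ICN1 range, and Gbp3 was not called (1.5 ± 0.67, adjusted p = 0.153).

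Of the 4 IRG genes, Igtp and Irgm2, the adjacent genes on chromosome 11 whose upstream sequences are printed above, rose by nearly the same amount. Igtp read 9.90, 9.82 and 9.32 in ICN1 and 11.14, 11.82, 11.10 and 11.04 in TEL-JAK2 (1.59 ± 0.23, 3.02-fold, adjusted p = 0.00292). Irgm2 read 7.20, 6.70 and 6.83 in ICN1 and 8.17, 9.51, 8.17 and 8.17 in TEL-JAK2 (1.6 ± 0.35, 3.03-fold, adjusted p = 0.0160). The groups were separate in both genes, with TEL-JAK2 replicate 2 standing above the other TEL-JAK2 arrays. Irgm2 missed the threshold without ICN1 replicate 2 (adjusted p = 0.0559). Irgm1, which restrains the effector IRG proteins, read 9.43, 9.13 and 8.49 against 9.09, 10.43, 8.48 and 9.65, with overlapping groups (0.39 ± 0.46, not called).

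The widest spread among the members was that of Iigp1, an effector IRG that coats parasite vacuoles. It read 8.13, 5.69 and 5.20 in ICN1 and 5.62, 11.75, 4.85 and 10.47 in TEL-JAK2. TEL-JAK2 replicates 2 and 4 were thus high, while TEL-JAK2 replicate 1 lay within the ICN1 range and replicate 3 below it, and the difference of 1.83 ± 1.80 was not called. The same pair of arrays stood out for Cxcl9 and Cxcl10, chemokines that draw CXCR3-bearing T cells and are induced by interferon gamma. Cxcl9 read 8.99, 6.14 and 6.89 in ICN1 and 6.94, 11.18, 5.26 and 10.74 in TEL-JAK2. Cxcl10 read 6.06, 5.52 and 5.61 in ICN1 and 5.90, 8.18, 5.36 and 8.13 in TEL-JAK2. Neither chemokine was called (1.19 ± 1.54 and 1.16 ± 0.74).

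Ifng, the gene of interferon gamma itself, was not a member and was looked at after these values were seen. It read 3.98, 3.43 and 3.74 in ICN1 and 3.70, 10.24, 3.71 and 7.98 in TEL-JAK2. Its high arrays were again TEL-JAK2 replicates 2 and 4 (2.69 ± 1.60, not called), and its 5 other arrays lay below 4. The cytotoxic gene Prf1 also read highest there (9.44 and 8.41, against 6.09 and 6.52 in the other TEL-JAK2 arrays and 5.06 to 6.12 in ICN1). The natural killer cell list, which includes Prf1 and had 1 of 6 genes called (Gzma), averaged 7.25 and 7.0 in those 2 arrays. It averaged 5.70 to 6.39 in the others, while its defining marker Ncr1 stayed between 4.01 and 4.61 throughout. The macrophage list averaged 7.84 and 7.89 in TEL-JAK2 replicates 2 and 4 and 6.49 and 5.94 in replicates 1 and 3. Markers of conventional dendritic cells (0 of 7 called; 0.93 median difference), B cells (1 of 7 higher) and stroma and endothelium (1 of 8 lower) averaged 5.55 to 6.87, 5.63 to 6.73 and 5.16 to 6.98 in TEL-JAK2. By limma, 4 of the 7 dendritic cell markers had an unadjusted p under 0.05. The part of any of these cells in the pattern was not tested. In ICN1 replicate 1, where Iigp1 and Cxcl9 were the highest of their group, Ifng read 3.98 and the macrophage list 9.54.

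**Figure D3:**
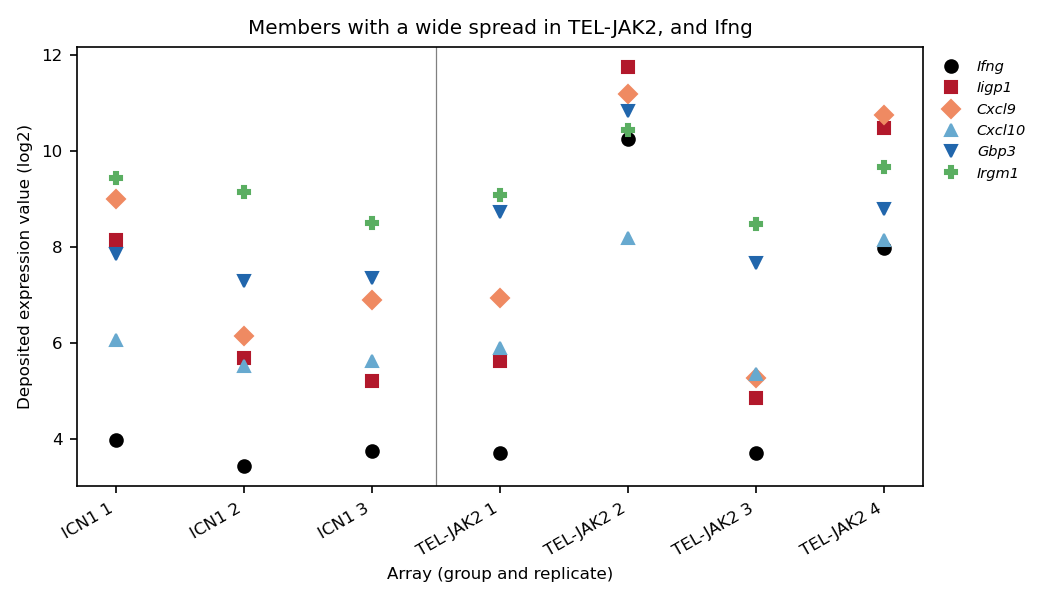
Deposited log2 value (vertical axis) of Ifng and of 5 members with wide spread in the 7 arrays (horizontal axis; a line divides ICN1 from TEL-JAK2). Ifng, Iigp1, Cxcl9 and Cxcl10 read highest in TEL-JAK2 replicates 2 and 4, and Ifng lies under 4 in the other 5 arrays.

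The members varied together between arrays of the same group. In TEL-JAK2, replicate 2 was the highest of the 4 arrays in 32 of 39 members (82.1%) and replicate 3 the lowest in 33 (84.6%). Over all 18193 genes, replicate 2 was the highest in 25.5% and replicate 3 the lowest in 24.9%. The median member lay 0.57 above its group mean in replicate 2 and 0.58 below it in replicate 3. In ICN1, replicate 1 was the highest in 24 members (61.5%, against 30.8% of all genes) and replicate 3 the lowest in 26 (66.7%, against 32% of all genes). In TEL-JAK2, replicate 2 was the highest array in 23 of 30 antiviral members, 7 of 7 GTPases and both chemokines, and replicate 3 the lowest in 25, 6 and both. In ICN1, replicate 3 was the lowest in 21 antiviral members, 5 GTPases and neither chemokine, both of which were lowest in replicate 2. Of the 3 members that fell in TEL-JAK2, Rsad2, Cmpk2 and Isg20 were each highest in replicate 2 of that group, Rsad2 and Cmpk2 were lowest in its replicate 3 and Isg20 in its replicate 4. Within ICN1 all 3 were highest in replicate 2, not in replicate 1. The members share each array and its RNA, so these shares are a description without a test. The median SD was 0.53 over the members and 0.16 over all genes in the TEL-JAK2 group.

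**Figure D4:**
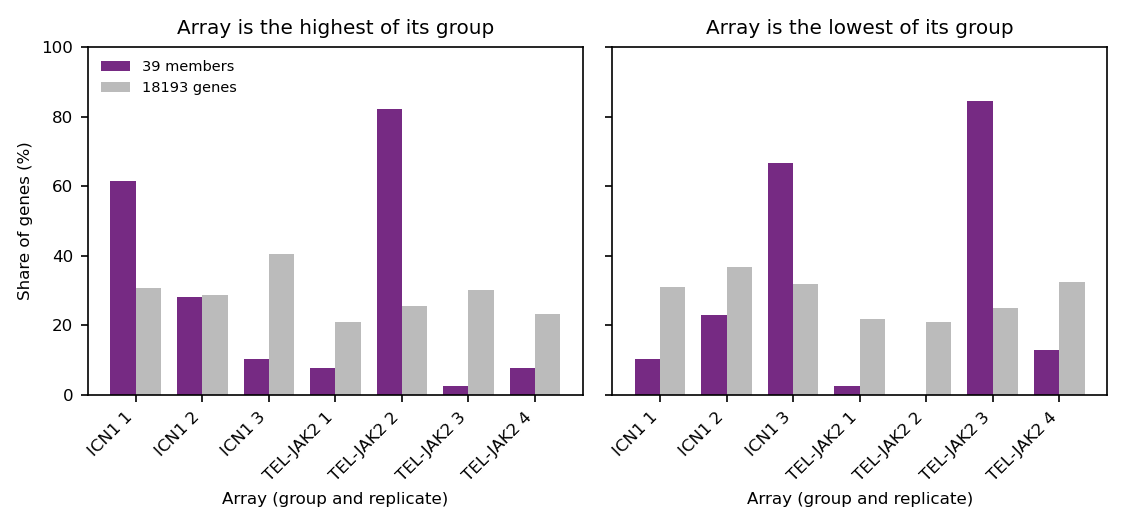
Share of genes (vertical axis, percent) for which each array (horizontal axis) was the highest (left) or the lowest (right) of its group, for the 39 members and for all 18193 genes. TEL-JAK2 replicate 2 was highest in 82.1% of members and TEL-JAK2 replicate 3 lowest in 84.6%.

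The genes of the interferon pathway, its inhibitors included, were higher in TEL-JAK2 wherever they were called. Of 25 measured genes of the interferon pathway 12 were higher, 0 lower and 13 not called (1 with a negative difference), with a median difference of 0.69. The background was 11.9% higher and 12.2% lower. Receptors accounted for 5 of the calls and inhibitors of the pathway for 3. Ifngr1, the ligand-binding chain for interferon gamma, rose from 9.57, 10.80 and 9.58 in ICN1 to 13.13, 12.94, 13.10 and 12.87 in TEL-JAK2 (3.03 ± 0.30, 8.16-fold). Ifnar1, a chain of the type I receptor, rose by 1.30 ± 0.10 and Il10rb, shared with the interferon lambda receptor, by 1.24 ± 0.12. These 3 genes did not overlap between the groups.

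Among the transcription factors, Stat2 rose by 1.05 ± 0.13 and Irf1, the interferon gamma-responsive activator of many GTPase genes, by 1.42 ± 0.29. Both lost their call with CD3 centring (adjusted p = 0.0825 and 0.0574). Irf7, which amplifies type I interferon, differed by 0.13 ± 0.39. The feedback inhibitors Socs1 (3.64 ± 0.20) and Socs3 (4.22 ± 0.26), which block Janus kinases, rose most of the pathway. Of the ligands, 0 of 4 were called by limma, and Ifnb1 (4.19 in ICN1, 4.09 in TEL-JAK2), Ifna2 (4.13 and 4.38) and Ifna4 (3.54 and 3.63) averaged below the array medians in both groups. At an unadjusted p under 0.05, 1 ligand was higher, Ifna2 (adjusted p = 0.0918).

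**Figure D5:**
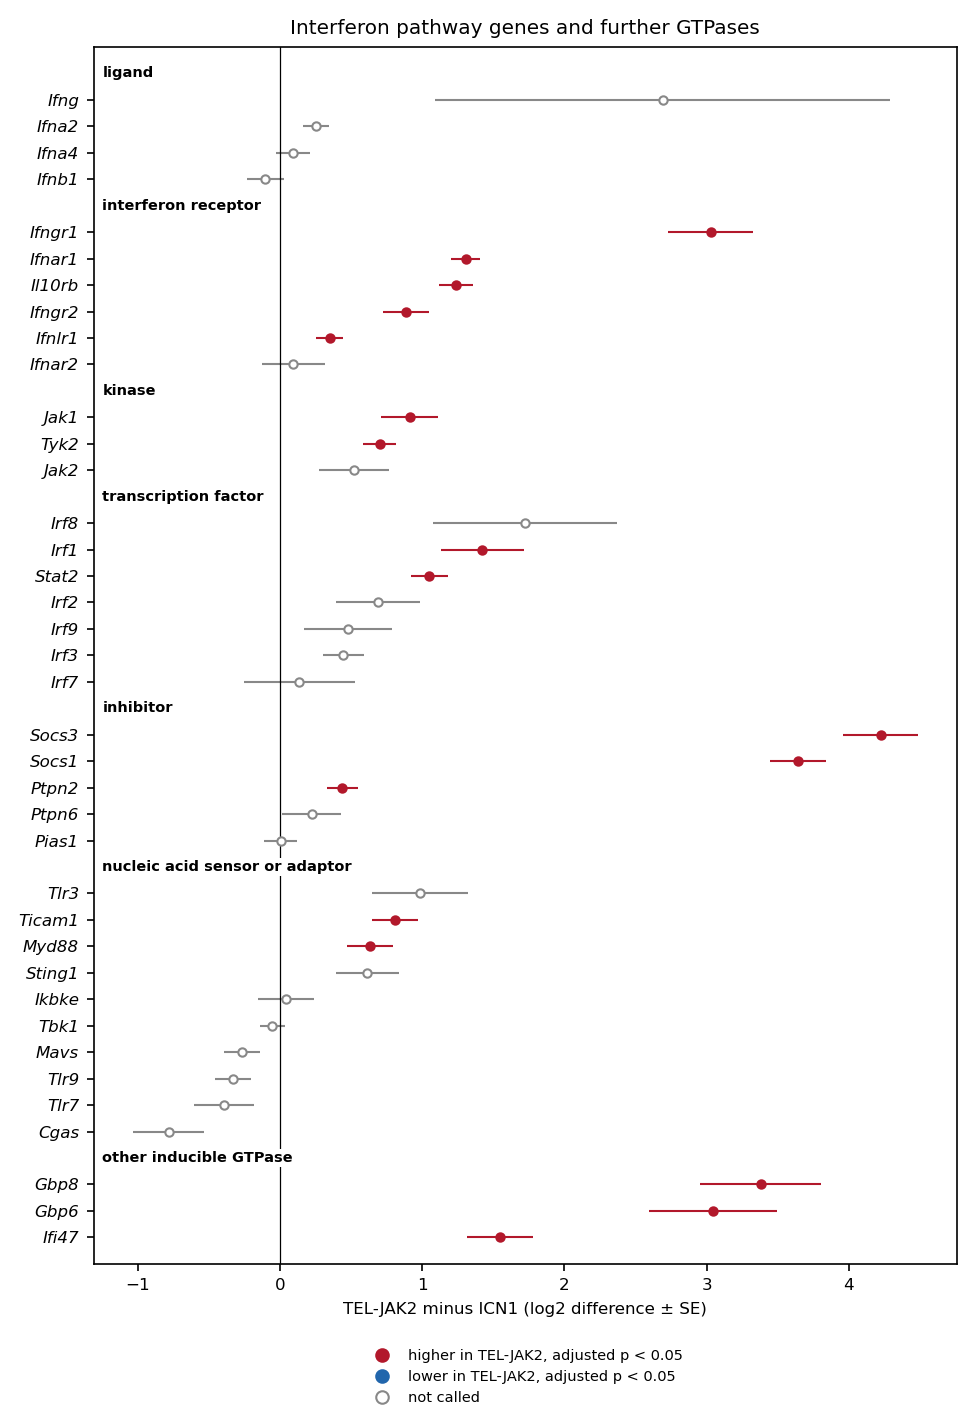
Log2 difference (TEL-JAK2 minus ICN1, horizontal axis) with the standard error of the fit for interferon pathway genes, nucleic acid sensors and adaptors, and further interferon-inducible GTPases. Socs3 (4.22), Socs1 (3.64) and Ifngr1 (3.03) are the pathway genes farthest to the right, and no gene shown was called lower.

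Sensors and adaptors that act before the interferons were called at a share near that of all genes. Of 10 measured, 2 were higher and 0 lower (20% called, against 24.1% of all genes), with a median difference of -0.01. The adaptors Ticam1 (0.81 ± 0.16) and Myd88 (0.63 ± 0.16) of the Toll-like receptors were the 2 called, and with CD3 centring neither was (0.18 and 0.01). The adjusted p of Myd88 was 0.0575 without ICN1 replicate 1 and 0.0872 without ICN1 replicate 2.

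Further interferon-inducible genes outside the list were counted in the same way. The 3 measured further GTPases were all higher: Gbp8 (3.38 ± 0.43, 10.4-fold), Gbp6 (3.05 ± 0.45, 8.26-fold) and Ifi47 (1.55 ± 0.23, 2.92-fold), each without overlap. Of 27 further interferon-stimulated genes 9 were higher, 1 lower and 17 not called (37% called), with a median of 0.55, where 11.9% of all genes were higher and 12.2% lower. They included Ddx60, a helicase that aids RIG-I (2.35 ± 0.30), Trim34a (1.69 ± 0.26), the antibody receptor Trim21 (1.31 ± 0.22), the nuclear body gene Sp100 (1.12 ± 0.18) and Ifi27 (1.40 ± 0.29). Pnpt1, a mitochondrial exonuclease, was the 1 lower (-0.82 ± 0.15). Sp100 was not called with CD3 centring (adjusted p = 0.0754).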

How the data were processed

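Each of the 7 samples was measured on 1 array. The authors deposited log2 expression values, 1 per probe set and array, made with RMA per the submitters' processing notes; no version or setting was stated. RMA draws arrays toward 1 distribution, so total RNA cannot be compared, and it compresses folds near background. Scan dates and detection calls were not used here. The number of arrays limits the precision. Replicates were numbered in accession order. Each array title carries its own leukemia number, but the labels do not state that arrays of a group are separate animals. TEL-JAK2 replicate 4 read 5.19 for Xist and 10.23 for Eif2s3y. TEL-JAK2 replicates 1 to 3 read 13.12 to 13.36 and 3.18 to 3.29, so the group did not come from a single animal. In ICN1, Eif2s3y read 8.93, 9.41 and 3.25. The tests cover the spread among these 7 arrays, part of which may be technical.

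Of 45037 probe sets, 34945 had 1 symbol, 932 several and 9160 none. The brightest 1-symbol probe set stood for each of 18193 genes. TEL-JAK2 minus ICN1 was fitted with limma 3.58.1 in R 4.3.3 (lmFit, eBayes, two-sided), with Benjamini-Hochberg adjustment over all genes. A gene was called at an adjusted p under 0.05. Errors after ± are SE of the fit unless marked SD. Members, lists and alternatives were chosen with earlier results of these data known. All measured members are named. Of other lists up to 6 called genes with the smallest adjusted p are named, and Ifng, Irf1, Irf7, Prf1 and the ligands were named after values were seen, as were the Igtp and Irgm2 sequences. Alternatives covered the choice of probe set, dim probe sets, scaling, the test, its threshold and single arrays left out. Neighbouring genes come from a RefSeq table of GRCm38.p6. Arrays of all 18193 genes were simulated for this comparison, with noise drawn independently for each gene and 200 genes changed. Of these, 56 of 100 with a difference of 1 log2 unit and 88 of 100 with 2 units were called, beside 4 false calls. In the data 4380 genes were called and members varied together between arrays, so these rates need not hold for the members. Figures were drawn with matplotlib 3.10.9.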

Additional observations from a re-analysis of the deposited data

Results flagged for a closer look

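Within the 4 TEL-JAK2 arrays, 2 members had an array whose distance to its nearest neighbour took up nearly the whole range of the group. These were Igtp (11.82) and Irgm2 (9.51), both in TEL-JAK2 replicate 2. Chance marks about 1 in 20 groups of this size, and 39 members were examined. The groups of 3 ICN1 arrays were not examined in this way.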

How the results depend on the processing

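No paired analysis was possible because the labels give the arrays no shared replicate numbers. All 39 members (37 where dim genes were left out) kept their call status and direction with probe sets tested singly, cyclic loess, median centring, a second quantile normalization, array weights, and robust moderation with a trend. The mean over a gene's probe sets lost Rtp4, Ifi35 and Parp14 and gained Dhx58, and leaving out cross-hybridizing probe sets lost Ifi35. The 13 higher, 9 antiviral and 4 GTPase calls became 7, 5 and 2 in a test against a 1.5-fold difference and at an adjusted p under 0.01, and 4, 3 and 1 by a per-gene test with unequal variances. Without ICN1 replicates 1 and 2, which leaves 1 ICN1 array assumed to vary like the TEL-JAK2 arrays, 8 members were higher, 5 of them antiviral, and 2 were lower, with Cmpk2 lost. Without 1 array the members higher ranged from 7 to 17, the antiviral members from 5 to 13 and the GTPases from 2 to 4; the members lower ranged from 3 to 4. CD3 centring moved all differences by -0.62, left 6.45% of all calls higher against 49.4%, and gave 10 lower members, all 10 antiviral.

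No called member changed direction under these alternatives. Of those not called, CD3 centring turned Oas2 (-0.40), Usp18 (-0.23), Ifih1 (-0.56), Dhx58 (-0.0003), Adar (-0.48), Irgm1 (-0.23) and the pathway gene Irf7 (-0.49). Without ICN1 replicates 1 and 2, Ifit1 (0.055), Ifit2 (0.11), Oas1a (0.38), Mx2 (0.038), Herc6 (0.13) and Adar (-0.045) turned. Over the fits without 1 array, differences that crossed 0 ranged from -0.47 to 0.067 for Ifit2, -0.73 to 0.41 for Oas1a, -0.46 to 0.047 for Oasl1, -0.086 to 0.02 for Mx2, -0.32 to 0.041 for Herc6, -0.11 to 0.33 for Ifih1 and -0.14 to 0.43 for Irf7. Apart from the shift that CD3 centring makes by construction, the cause was not tested. Of 14 further probe sets of called members, all 14 had the same sign and 8 were called. Untransformed values were not met, so the planned log2 offset was not run.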
